A study of Mus musculus with 40 samples.

Results

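The comparison of TAK1-deleted with TAK1-intact mouse cardiac fibroblasts after TGFβ treatment rests on 8 of the 40 libraries of the series, 4 titled iCre_TGF and 4 titled LacZ_TGF, paired by their replicate numbers 1 to 4. Fibroblasts were isolated from adult hearts of C57BL/6J mice homozygous for a floxed Map3k7 allele (TAK1fl/fl), grown in medium with serum and bFGF, and used at passage 1. The cells of both groups carried the floxed allele and received an adenovirus with a CMV promoter, which drives expression in any transduced cell. The virus encoded Cre recombinase (iCre) in the deleted group and the bacterial enzyme LacZ in the control group. Both groups were then serum-starved and treated with 10 ng/ml TGFβ for 24 h before polyA RNA was sequenced. The groups used for comparison received no ligand, 15 ng/ml IL-1β or 10 ng/ml TNFα, with LacZ and iCre libraries of the same 4 replicate numbers for each. The 8 libraries of the last ligand of the series, 20 ng/ml bFGF, entered values over all 40 libraries or all 10 groups and no comparison of their own. The study describes the replicates of this experiment as biological replicates from male mice, and whether a replicate number stands for the same heart in each group is not given in the sources used here.

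TAK1, the product of Map3k7, is a kinase that is activated downstream of IL-1 and TNF receptors with the adaptor proteins TAB1, TAB2 and TAB3, and it passes the signal to IKK and NF-κB and to the JNK and p38 kinases. TGFβ receptors signal through SMAD2 and SMAD3 and, in parallel, can activate TAK1 through TRAF6. In cardiac fibroblasts TGFβ is known for inducing a myofibroblast state, in which contractile proteins, collagens and matricellular proteins are made in large amounts. The comparison asks which transcripts of TGFβ-treated fibroblasts depend on TAK1.

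The floxed allele is built around exon 2 of Map3k7, which Cre removes. It is shown because it is the part of the transcript that the treatment targets. In GRCm38 with the GENCODE M21 annotation, exon 2 lies at chr4:31974823-31974933 on the plus strand. It holds 111 bases, all of them coding, and is part of each of the 4 coding transcripts annotated. The exon length is divisible by 3, so that its loss keeps the reading frame. The sequence below has exon 2 in capitals, between 20 bases of exon 1 and 20 bases of exon 3.
Map3k7 exon 2: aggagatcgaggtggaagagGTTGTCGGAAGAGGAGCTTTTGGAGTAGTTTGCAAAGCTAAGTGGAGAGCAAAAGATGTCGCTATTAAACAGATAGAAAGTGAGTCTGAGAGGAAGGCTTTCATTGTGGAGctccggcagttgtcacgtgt
The deposited counts sum reads over all exons of a gene, and reads on exon 2 alone were not analysed here.

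Read counts per library lay between 30591627 and 51228185 in the 8 libraries, and between 25360947 and 66160732 in all 40. No pair of libraries within either group agreed within sampling noise. Libraries with the same replicate number deviated from their group means together, with correlations of 0.38 to 0.84 across 11914 genes, so that the replicate number was kept as a block in the comparison. The GC content of transcripts moved with the comparison. CPM are read counts scaled to library size, here with TMM factors over the 40 libraries, and are given below in the order of replicates 1 to 4. For each 10% of GC, log2 CPM rose by 0.30 to 0.31 in the iCre libraries treated with TGFβ, while the slope was −0.14 to −0.10 in the matching LacZ libraries. All 12 libraries numbered S29 to S40, which are the iCre groups with TGFβ, IL-1β and TNFα, had slopes of 0.20 to 0.34. Slopes of −0.248 to 0.00268 were found in the other 28, among them the 8 iCre libraries with no ligand or bFGF. The effect of TAK1 deletion with TGFβ and a property of the libraries S29 to S32 therefore cannot be told apart from this comparison alone. Most counts of genes are given without and with a correction for GC content. Unless marked as corrected, a log2 fold change, difference or median given alone is the value before the correction.

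In the 1192 genes of the lowest GC bin, with transcripts under 41.3% GC, 902 fell and 7 rose in the deleted cells. Among the 1192 genes of the highest bin, above 57.9% GC, 631 were higher and 27 lower. The median log2 fold change (iCre over LacZ) ran from −0.62 in the lowest to 0.30 in the highest bin. After the correction, it lay between −0.04 and 0.02 in all 10 bins. The lowest bin still held 222 higher and 220 lower genes after the correction, a larger share than any other bin.

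**Figure D1:**
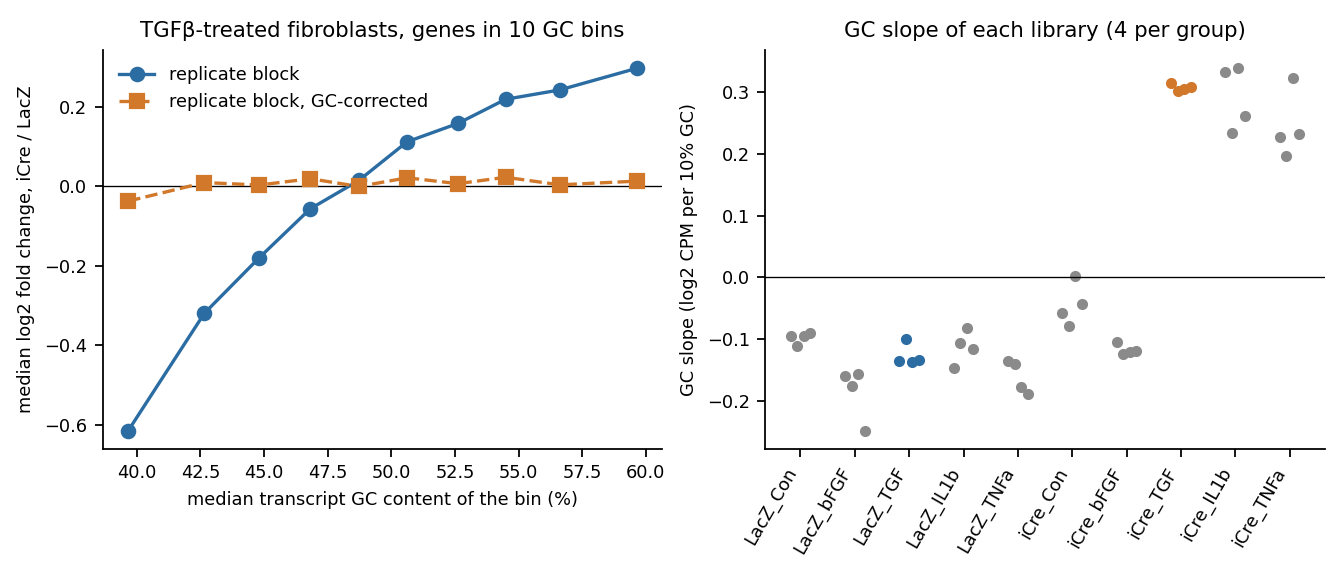
The left panel plots the median log2 fold change of iCre over LacZ fibroblasts with TGFβ in 10 bins of transcript GC content (percent), from the fit with the replicate block (circles) and after GC correction (squares). The right panel plots the slope of log2 CPM per 10% GC in each of the 40 libraries by group: the 4 iCre_TGF libraries lie between 0.30 and 0.31 and the 4 LacZ_TGF libraries between −0.14 and −0.10.

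Of 25210 genes tested with the replicate block, 5238 (20.8%) passed an adjusted p of 0.05, of which 2438 (9.67%) were higher and 2800 (11.1%) lower in iCre fibroblasts. Without the block 2111 genes passed (8.37%), 632 higher (2.51%) and 1479 lower (5.87%), and 2108 of them were also called, in the same direction, with the block. After GC correction 2228 of 24970 genes passed (8.92%), with 965 higher (3.86%) and 1263 lower (5.06%). This count fell to 1262 without replicate 3 and to 1248 without replicate 4. In both fits and in the same direction, 1606 genes passed (6.43%), 537 higher (2.15%) and 1069 lower (4.28%). A further 58 genes were lower before and higher after the correction. Below, a gene is said to have risen or fallen in both fits when it passed in the same direction before and after GC correction. With GC correction and no block, 323 genes passed. Of 147 genes chosen to be named, 89 lost significance in that fit, Ivl, Tgfb2, Lum, Fosl1 and Egr3 among them.

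Map3k7 (ENSMUSG00000028284, chr4:31964097-32023467 of GRCm38, plus strand) was measured at 229, 222, 222 and 233 CPM in the LacZ libraries and 154, 126, 150.4 and 153 CPM in the iCre libraries. All 4 iCre values lay below all LacZ values, and replicate 2 was the lowest iCre library. The log2 fold change, given with its standard error (SE), was −0.67 (SE 0.07, adjusted p = 2.21e-06), and −0.51 (SE 0.07, adjusted p = 0.000283) after GC correction. Reads from the other exons of the recombined allele were counted too, so that this value is not the share of recombined cells. Here and below, fewer cells with a transcript and less of it per cell cannot be told apart in bulk RNA. The floxed gene moved in the direction of the labels in 4 of 4 pairs.

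Sema7a (ENSMUSG00000038264, chr9:57940112-57962865), which encodes a membrane-anchored semaphorin that binds integrins and plexin C1, was at 9.66, 5.08, 10.5 and 9.13 CPM in the LacZ libraries and 21.1, 19.4, 40.0 and 92.2 CPM in the iCre libraries. The iCre values were all above the LacZ values, with replicate 4 far above the other iCre libraries. Its log2 fold change was 2.05 (SE 0.21, adjusted p = 9.72e-07), and 1.79 (SE 0.23, adjusted p = 0.000138) after GC correction. Without the block the adjusted p was 0.016, and with GC correction and no block it was 0.0797.

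Postn (ENSMUSG00000027750, chr3:54361109-54391037), the gene for the matricellular protein periostin and a usual marker of activated cardiac fibroblasts, was at 2936, 3063, 2676 and 3643 CPM in the LacZ libraries and 1851, 1427, 1370.1 and 1490.5 CPM in the iCre libraries. The groups did not overlap, with means of 3079.5 ± 409 CPM with LacZ and 1535 ± 216 CPM with iCre (SD, n = 4). The log2 fold change was −1.04 (SE 0.09, adjusted p = 1.25e-07). Postn has an AT-rich transcript (36.3% GC), inside the lowest GC bin, and after GC correction the log2 fold change was −0.18 (SE 0.09, adjusted p = 0.328). Lower Postn in iCre fibroblasts thus passed the test before and not after the correction. With no ligand, where neither group has the raised GC slope, Postn was at 715 ± 207 CPM with LacZ and 296 ± 179 CPM with iCre (SD, n = 4), a log2 fold change of −1.40 (adjusted p = 1.8e-05).

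**Figure D2:**
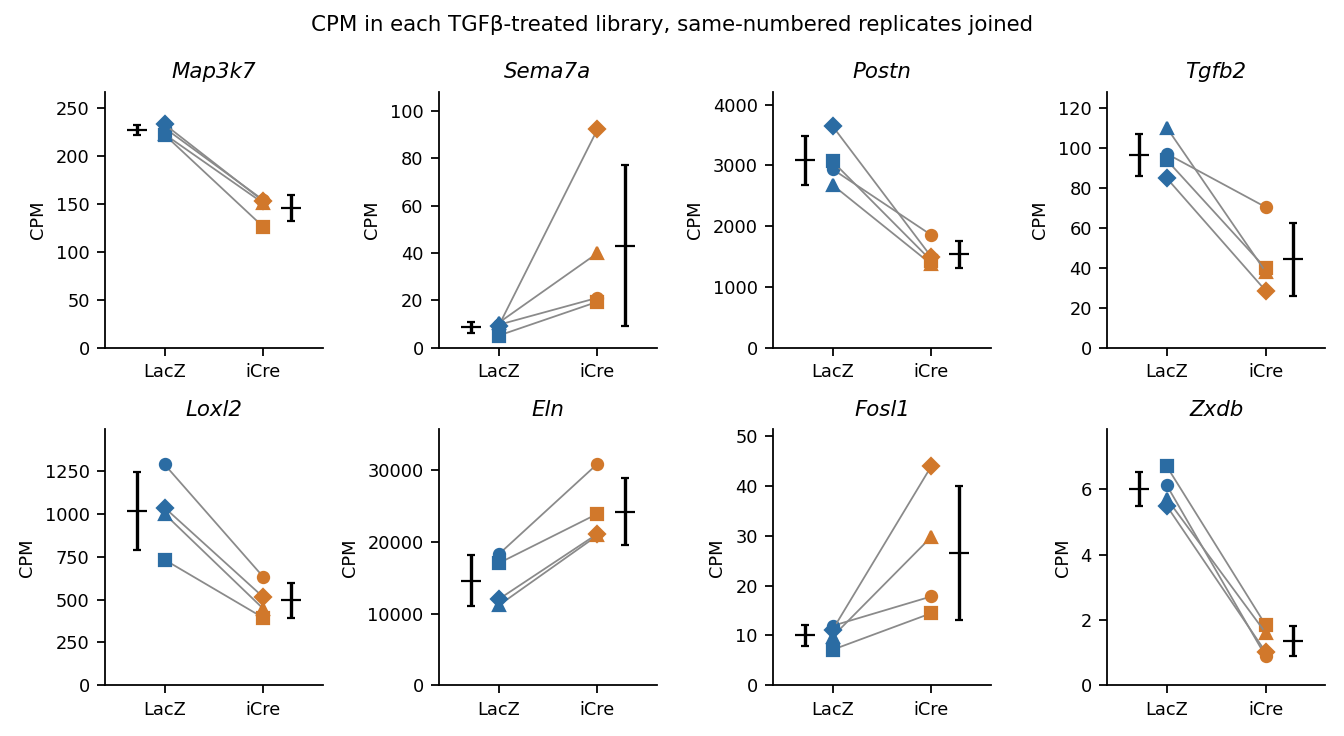
CPM of 8 genes in each of the 8 TGFβ-treated libraries, with LacZ in blue, iCre in orange and lines between libraries of the same replicate number (circle 1, square 2, triangle 3, diamond 4). Black bars are the mean and SD of 4 libraries. The groups do not overlap for any of the 8 genes, and replicate 4 is highest among the iCre libraries for Sema7a and Fosl1.

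The 8 protein-coding genes with the largest rises were ranked by the smaller of both log2 fold changes, among those at 1 CPM or more on average, with no overlap between groups and an adjusted p of at most 0.05 in both fits. A total of 245 protein-coding genes qualified in this direction and 549 in the other. Regardless of the test, 14.7% of the 12578 genes at 1 CPM or more were higher and 14.2% lower in iCre fibroblasts with no overlap between groups. Several of the 8 are best known from other tissues, and most were at low levels here.

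Ivl, the gene for involucrin, a protein of the cornified envelope of skin, was at 0.579, 0.235, 1.68 and 0.909 CPM in the LacZ libraries and 3.87, 1.70, 7.19 and 5.78 CPM in the iCre libraries. It was higher in every iCre library, with a log2 fold change of 2.50 (SE 0.23, adjusted p = 1.86e-07) and 2.37 (SE 0.22, adjusted p = 1.41e-05) after GC correction. Its lowest count in a library was 10 reads, and none of 6 keratinocyte markers (Krt1, Krt5, Krt10, Krt14, Epcam and Cdh1) passed the test in either fit. Add2, which encodes β-adducin of the membrane skeleton, was at 1.68, 0.564, 0.881 and 1.40 CPM in the LacZ libraries and 4.37, 1.70, 3.82 and 11.3 CPM in the iCre libraries. Its log2 fold change was 2.01 (SE 0.25, adjusted p = 8.24e-06), and 1.87 after GC correction, with the highest value in iCre replicate 4.

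Tnni1, the gene for slow skeletal troponin I, was at 0.745, 0.212, 1.15 and 0.985 CPM in the LacZ libraries and 2.02, 1.63, 2.66 and 4.84 CPM in the iCre libraries. Its log2 fold change was 1.86 (SE 0.29, adjusted p = 0.000108) and hardly moved with GC correction (1.84), but without the block the adjusted p was 0.0544. Arc, an immediate-early gene known from neurons, was at 0.855, 0.682, 1.20 and 0.909 CPM in the LacZ libraries and 3.47, 2.89, 2.66 and 4.15 CPM in the iCre libraries, with a log2 fold change of 1.82 (SE 0.25, adjusted p = 2.29e-05). All 4 iCre values of Arc lay between 2.66 and 4.15 CPM, close to each other and above every LacZ value.

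Penk, which encodes the opioid precursor proenkephalin, was at 3.31, 3.10, 4.67 and 5.61 CPM in the LacZ libraries and 10.8, 12.7, 10.4 and 19.3 CPM in the iCre libraries. Its groups did not overlap, with a log2 fold change of 1.64 (SE 0.15, adjusted p = 2.16e-07). Sncg, the gene for γ-synuclein, was at 0.828, 3.48, 3.71 and 3.98 CPM in the LacZ libraries and 11.2, 6.88, 9.06 and 10.2 CPM in the iCre libraries, where LacZ replicate 1 stood below the other LacZ libraries. Its log2 fold change was 1.70 (SE 0.29, adjusted p = 0.000242). Kcnn4, which encodes a calcium-activated potassium channel, was at 2.48, 5.25, 4.19 and 5.64 CPM in the LacZ libraries and 7.64, 12.5, 11.2 and 21.3 CPM in the iCre libraries, and rose with a log2 fold change of 1.52 (SE 0.14, adjusted p = 2.79e-07). After GC correction the log2 fold changes of Arc, Penk, Sncg and Kcnn4 were 1.54, 1.48, 1.46 and 1.40.

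Sequences upstream of the start were found for 16 of 21 genes looked up in RefSeq (GRCm38.p6), and were searched on both strands for an AP-1 site (TGANTCA), a SMAD element (CAGAC), an ETS site (CCGGAAG), a CArG box and an NF-κB site. The promoter of Ivl is shown because it was the gene with the largest rise by the rule above and the sole one of the 16 genes with an AP-1 match in the 250 bases searched. The promoter of Kcnn4 is shown because Kcnn4 rose and holds an NF-κB match. In capitals are the AP-1 match of Ivl, which begins 116 bases upstream of the start, and the NF-κB match of Kcnn4, which begins 33 bases upstream.
Ivl, chr3:92573736-92573985, minus strand: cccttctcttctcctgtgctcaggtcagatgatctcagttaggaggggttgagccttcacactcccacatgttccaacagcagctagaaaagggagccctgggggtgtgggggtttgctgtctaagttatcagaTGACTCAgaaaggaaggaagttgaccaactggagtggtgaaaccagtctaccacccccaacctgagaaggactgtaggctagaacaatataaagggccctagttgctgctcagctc
Kcnn4, chr7:24370013-24370262, plus strand: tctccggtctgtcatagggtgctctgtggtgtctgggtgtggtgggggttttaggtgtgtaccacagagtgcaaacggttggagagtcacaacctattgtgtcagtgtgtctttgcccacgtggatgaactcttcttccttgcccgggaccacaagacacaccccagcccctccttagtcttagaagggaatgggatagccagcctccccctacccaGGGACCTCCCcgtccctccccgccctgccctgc
Among all 32851 promoter windows of this length, 6.75% hold TGANTCA, 7.25% an NF-κB match, 42.2% CAGAC, 6.91% CCGGAAG and 1.47% a CArG box. The window of Map3k7 also holds an NF-κB match. CAGAC was found for Kcnn4, Nkain2, Sema7a and Smtnl2, and for Postn and Tnni1 in 1 of the 2 windows listed for each. That of Postn is in the window farther from the start of the gene given above. No other of the 16 genes had an AP-1 or NF-κB match, which says no more than that these letters are not in the windows searched.

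The 8 protein-coding genes with the largest falls include 4 zinc finger or predicted genes. Zfp808 was at 1.16, 2.23, 1.90 and 2.16 CPM in the LacZ libraries and 0.0992, 0.518, 0.0749 and 0.221 CPM in the iCre libraries. Gm3604 was at 1.19, 2.16, 2.35 and 1.86 CPM in the LacZ libraries and 0.364, 0.407, 0.0374 and 0.277 CPM in the iCre libraries. No library overlapped between groups in either gene, and every iCre value was under 1 CPM, where few reads set the fold change. Both lie near each other on chromosome 13, at chr13:62129886-62236144 and chr13:62368328-62383177, in a cluster of related genes whose reads the counting could have split, so that their values are uncertain. Their log2 fold changes were −3.16 (SE 0.38, adjusted p = 6.15e-06) and −2.80 (SE 0.42, adjusted p = 6.14e-05), and −2.31 and −1.94 after GC correction.

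Zxdb, an X-linked zinc finger gene at chrX:94724569-94730187, was at 6.13, 6.70, 5.72 and 5.49 CPM in the LacZ libraries and 0.893, 1.85, 1.61 and 1.02 CPM in the iCre libraries. The highest iCre value (1.85 CPM) was far under the lowest LacZ value (5.49 CPM). Its transcript has a GC content of 50.8%, near the middle of all genes, and the correction changed its log2 fold change little, from −2.23 (SE 0.21, adjusted p = 2.53e-07) to −2.33 (SE 0.21, adjusted p = 9.42e-06). Zfp979 was at 7.23, 3.79, 9.70 and 8.14 CPM in the LacZ libraries and 0.827, 0.666, 0.824 and 0.857 CPM in the iCre libraries, with a log2 fold change of −3.16 (SE 0.21, adjusted p = 6.02e-09), and −2.16 (SE 0.20, adjusted p = 1.41e-05) after GC correction.

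Strip2, which encodes a subunit of the STRIPAK phosphatase complex, was at 1.13, 4.45, 5.80 and 4.43 CPM in the LacZ libraries and 0.661, 0.444, 0.861 and 0.968 CPM in the iCre libraries. LacZ replicate 1 was the lowest of its group and still above every iCre library. Its log2 fold change was −2.31 (SE 0.31, adjusted p = 1.81e-05). Olfml1, a secreted protein with an olfactomedin domain, was at 6.04, 4.42, 11.2 and 10.2 CPM in the LacZ libraries and 3.77, 0.999, 1.123 and 1.55 CPM in the iCre libraries. On the log2 scale the fold change was −2.19 (SE 0.29, adjusted p = 1.92e-05), and iCre replicate 1 was the library nearest to the LacZ group.

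Smtnl2, a relative of the actin-binding protein smoothelin, was at 12.3, 6.96, 8.04 and 10.3 CPM in the LacZ libraries and 5.52, 2.70, 1.39 and 0.968 CPM in the iCre libraries. Nkain2, which encodes a membrane protein that interacts with the sodium pump, was at 1.99, 1.01, 1.98 and 1.78 CPM in the LacZ libraries and 0.628, 0.259, 0.412 and 0.249 CPM in the iCre libraries. In both genes every iCre library was below every LacZ library. The log2 fold changes were −2.05 (SE 0.26, adjusted p = 1.21e-05) and −2.18 (SE 0.33, adjusted p = 6.57e-05). After GC correction the log2 fold changes of Strip2, Olfml1, Smtnl2 and Nkain2 were −2.20, −2.21, −2.22 and −2.08.

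**Figure D3:**
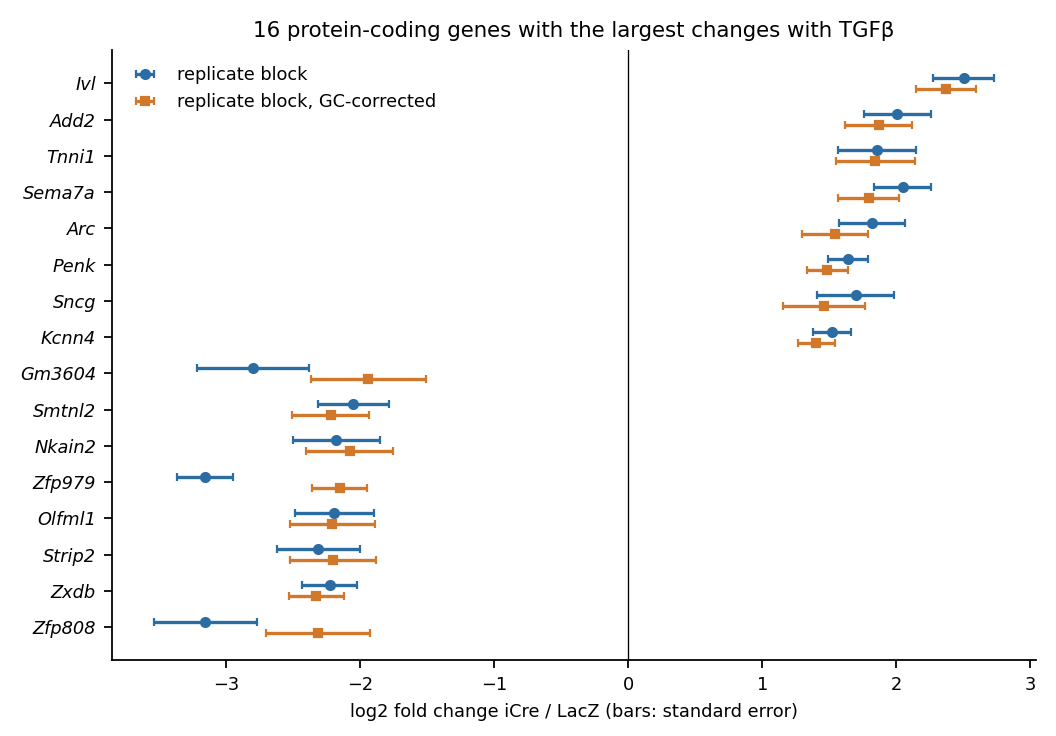
Log2 fold changes (iCre over LacZ, TGFβ-treated) of the 16 protein-coding genes with the largest changes, before (circles) and after (squares) GC correction, with standard errors. GC correction moved Zfp808, Zfp979 and Gm3604 furthest, Zfp979 from −3.16 to −2.16. The 16 genes were chosen for passing in the same direction in both fits.

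Of 20 genes of the TAK1 complex and the kinases and adaptors around it, 2 rose and 7 fell with the block, where 9.67% and 11.1% of all genes did. After GC correction 1 rose and 1 fell, where 3.86% and 5.06% of all genes did. These shares, and 2.15% and 4.28% in both fits, are those against which the counts of each list below are read. For the 20 genes the median log2 fold change after the correction was −0.03, where the median of all genes was 0. The gene that fell was Map3k7 itself. Traf5, an adaptor of TNF receptor family members, was at 12.2, 11.5, 6.81 and 7.12 CPM in the LacZ libraries and 13.1, 15.8, 12.02 and 11.3 CPM in the iCre libraries, and rose in 4 of 4 pairs with log2 fold changes of 0.48 before (adjusted p = 0.0127) and 0.96 after GC correction (adjusted p = 0.000231). The groups overlapped, and its adjusted p was 0.271 without the block and 0.0527, 0.105 and 0.0765 without replicate 2, 3 or 4. Tab2, the most abundant adaptor of TAK1 in the list, was at 193, 274, 192 and 199 CPM in the LacZ libraries and 174, 207, 188 and 205 CPM in the iCre libraries, with a log2 fold change of −0.16 (SE 0.08, adjusted p = 0.193). Tab3, Mapk8 and Chuk, which encode an adaptor, JNK1 and the kinase IKKα, had log2 fold changes of −0.60, −0.55 and −0.51 before and −0.18, −0.01 and −0.07 after GC correction, and passed before it alone.

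Among 26 genes of TGFβ and SMAD signaling, 4 rose and 7 fell with the block (9.67% and 11.1% of all genes), and 1 rose and 8 fell after GC correction (3.86% and 5.06%). In both fits 1 rose and 4 fell. The share that rose after correction is near that over all genes. The ligand gene Tgfb2 was at 97.2, 94.1, 110.3 and 85.0 CPM in the LacZ libraries and 70.5, 39.9, 38.1 and 28.6 CPM in the iCre libraries. All iCre libraries were below all LacZ libraries, with replicate 1 nearest to them. Its fold change was, on the log2 scale, −1.23 (SE 0.13, adjusted p = 1.1e-06), and −1.16 (SE 0.14, adjusted p = 0.000105) after GC correction.

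Tgfb1, the gene of another TGFβ ligand, rose in both fits, with log2 fold changes of 0.47 and 0.32 (adjusted p = 0.00142 and 0.0398). Tgfbr2, the type II receptor that binds TGFβ first, was at 459.9, 310.3, 404 and 409.6 CPM in the LacZ libraries and 377, 304, 244 and 227 CPM in the iCre libraries. It was lower in 4 of 4 pairs, although the groups overlapped, with a log2 fold change of −0.50 (SE 0.11, adjusted p = 0.00169) and −0.56 (SE 0.11, adjusted p = 0.00544) after GC correction. Without the block its adjusted p was 0.117. Tgfbr1, the type I receptor, had a log2 fold change of −0.50 that passed before GC correction, and of −0.04 after it. The calls of Tgfb1 and Tgfbr1 were lost without the block too (adjusted p = 0.438 and 0.0634).

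Smad1, a SMAD of the BMP branch, was at 59.2, 55.7, 56.8 and 55.5 CPM in the LacZ libraries and 46.0, 51.6, 38.0 and 37.9 CPM in the iCre libraries, without overlap between the groups. It fell by 0.43 on the log2 scale before and by 0.55 after GC correction (adjusted p = 0.00127 and 0.00105). Smad4, the partner shared by both branches, fell in both fits with log2 fold changes of −0.25 and −0.29. The receptor-activated Smad2 and Smad3 did not pass in either fit (−0.17 and 0.24 before, 0.01 and 0.07 after). The inhibitory Smad6 and Smad7, which TGFβ and BMP signals induce, passed as lower after GC correction alone, at −0.47 and −0.39. Smad4 had an adjusted p of 0.0557 without the block.

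The 20 collagen chain genes split, with 8 higher and 5 lower with the block. After GC correction 1 was higher and 5 were lower, and these 6 genes had passed in the same direction before it. The median log2 fold change was 0.13 before and −0.13 after, so that its sign depends on the correction. Collagen transcripts are GC-rich, with a median of 56.5% in this list.

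No difference passed for the chains of collagen I. Col1a1 was at 22137, 26433, 18460.0 and 19130.0 CPM in the LacZ libraries and 24974, 25111, 24985 and 19819 CPM in the iCre libraries, with a log2 fold change of 0.12 (SE 0.09, adjusted p = 0.454). For Col1a2 the log2 fold change was 0.01 (SE 0.08, adjusted p = 1) before and −0.21 (SE 0.07, adjusted p = 0.0865) after GC correction. Col3a1, the chain of collagen III, was at 14480.0, 16531, 17362 and 17407 CPM in the LacZ libraries and 14872, 13244, 8834 and 8160.1 CPM in the iCre libraries. It was lower in iCre replicates 2, 3 and 4 and slightly higher in replicate 1, with log2 fold changes of −0.62 (SE 0.13, adjusted p = 0.00204) and −0.77 (SE 0.14, adjusted p = 0.00307), and an adjusted p of 0.127 without the block.

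Col8a1, a chain of the short-chain collagen VIII, was at 2572, 906, 2048 and 2222 CPM in the LacZ libraries and 1529, 488, 868 and 907 CPM in the iCre libraries. Within each pair the iCre value was lower, while between pairs replicate 2 was low in both groups, and the log2 fold change was −1.07 (SE 0.09, adjusted p = 8.7e-08). Without the block its adjusted p was 0.113. Col14a1, a fibril-associated collagen, was at 90.1, 67.6, 158 and 179 CPM in the LacZ libraries and 89.6, 19.1, 27.6 and 29.9 CPM in the iCre libraries, with a log2 fold change of −1.78 (SE 0.27, adjusted p = 7.16e-05). In replicate 1 the Col14a1 levels were nearly equal, and the 3 other pairs carried the difference. Col4a1 and Col4a2, the main chains of basement membrane collagen IV, fell in both fits with log2 fold changes of −0.40 and −0.43 before and −0.66 and −0.72 after correction. Col7a1, the chain of anchoring fibrils, was at 116, 112, 133 and 142 CPM in the LacZ libraries and 279, 149.6, 292 and 319 CPM in the iCre libraries and rose with a log2 fold change of 0.97 (SE 0.11, adjusted p = 1.83e-06), and 0.67 (SE 0.10, adjusted p = 0.000689) after GC correction. The groups of Col7a1 did not overlap, and replicate 2 was the lowest of each. In the fit with no block the adjusted p of Col14a1, Col4a1 and Col4a2 was 0.0694, 0.476 and 0.449.

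Of 22 genes of matricellular proteins and elastic fibres, 2 rose and 4 fell in both fits. Eln, the gene for tropoelastin and among the most abundant transcripts here, was at 18253, 17019, 11131 and 11988 CPM in the LacZ libraries and 30888, 23921, 20897 and 21124 CPM in the iCre libraries. Each iCre library was above all LacZ libraries, with a log2 fold change of 0.71 (SE 0.08, adjusted p = 2.93e-06) and 0.44 (SE 0.07, adjusted p = 0.00115) after GC correction. Without the block the adjusted p of Eln was 0.0699, and in a fit of all 40 libraries 0.13. Tgfbi, a secreted protein named for its induction by TGFβ, rose with log2 fold changes of 0.57 and 0.40. Its adjusted p was 0.411 without the block.

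Ccn5, a member of the CCN family, was at 1440.2, 429, 1194 and 1111 CPM in the LacZ libraries and 1198, 215, 610.5 and 546 CPM in the iCre libraries. It was lower in iCre fibroblasts in 4 of 4 pairs, with log2 fold changes of −0.85 (SE 0.10, adjusted p = 6.94e-06) and −1.09 (SE 0.11, adjusted p = 1.79e-05), and an adjusted p of 0.424 without the block. Ccn2, the connective tissue growth factor of the same family, had a log2 fold change of 0.04 (adjusted p = 0.881). Comp, which encodes a thrombospondin of cartilage and scar, was at 8.53, 5.97, 15.1 and 17.8 CPM in the LacZ libraries and 7.34, 4.59, 8.84 and 6.58 CPM in the iCre libraries, and fell in both fits (−0.74 and −1.03, adjusted p = 0.00315 and 0.00156). Sparcl1 and Fbln1, the genes for hevin and fibulin 1, fell in both fits too, with log2 fold changes of −0.88 and −0.31 before correction. Without replicate 4 the adjusted p of Sparcl1 was 0.0544. Fibronectin (Fn1), at 21472, 13969, 17619 and 21782 CPM in the LacZ libraries and 24584, 13825, 23207 and 20807 CPM in the iCre libraries, had a log2 fold change of 0.10 (SE 0.08, adjusted p = 0.563). For Comp, Sparcl1 and Fbln1 the adjusted p without the block was 0.184, 0.189 and 0.207.

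Enzymes and chaperones of collagen processing included 19 genes, of which 5 rose and 4 fell with the block and none rose and 5 fell after GC correction, 3 of them in both fits. Loxl2, a lysyl oxidase that cross-links collagen, was at 1290.4, 733, 1002 and 1038 CPM in the LacZ libraries and 632, 394, 446 and 514 CPM in the iCre libraries. All pairs showed a lower iCre value and the groups did not overlap. The log2 fold change was −1.06 (SE 0.08, adjusted p = 1.45e-08), and −1.19 (SE 0.07, adjusted p = 6.76e-07) after GC correction, the smallest adjusted p of the genes named after correction. Plod2, a lysyl hydroxylase for the telopeptide cross-links, was at 1119, 1130.0, 1204 and 1315 CPM in the LacZ libraries and 827, 759, 843 and 737 CPM in the iCre libraries, with log2 fold changes of −0.62 (SE 0.08, adjusted p = 1.28e-05) and −0.31 (SE 0.08, adjusted p = 0.0192). Adamts2, which removes the amino propeptide of procollagen, fell in both fits (−0.33 and −0.52), although it was higher in iCre replicate 1 than in LacZ replicate 1, and its adjusted p was 0.0669 without replicate 3 and 0.16 without replicate 4. Lox itself had log2 fold changes of −0.44 before and −0.20 after correction, and passed before it alone. Adamts2 and Lox had adjusted p-values of 0.533 and 0.462 without the block.

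Of 16 proteoglycan and hyaluronan genes, 7 fell and 2 rose with the block, and 3 fell after GC correction, all 3 in both fits. Ogn, the small leucine-rich proteoglycan osteoglycin, was at 68.5, 238, 89.2 and 81.1 CPM in the LacZ libraries and 23.8, 128, 16.02 and 10.2 CPM in the iCre libraries. Lum, the related lumican, was at 93.9, 77.3, 158 and 178 CPM in the LacZ libraries and 66.8, 28.2, 39.6 and 63.5 CPM in the iCre libraries. Lum did not overlap between groups, while Ogn overlapped because replicate 2 was high in both. The log2 fold change of Ogn was −1.97 (SE 0.21, adjusted p = 1.57e-06), and −1.11 (SE 0.22, adjusted p = 0.00491) after GC correction, against an adjusted p of 0.304 without the block. That of Lum was −1.39 (SE 0.15, adjusted p = 1.42e-06), and −0.998 (SE 0.16, adjusted p = 0.000999) after correction. Cemip, which encodes a hyaluronan-degrading protein, was at 787, 653, 264 and 177 CPM in the LacZ libraries and 287, 928, 158 and 47.4 CPM in the iCre libraries, lower in 3 of 4 pairs, with a log2 fold change of −0.94 (SE 0.23, adjusted p = 0.00646) and an adjusted p of 0.0859 without replicate 4. Its log2 fold change was −1.07 after GC correction, −0.61 without replicate 4 and −0.43 with no block. The call of Cemip was lost with DESeq2 (adjusted p = 0.133), filterByExpr (0.0843), protein-coding genes alone (0.0649) and all 40 libraries (0.231). Decorin (Dcn), with a transcript of 37.4% GC, did not overlap and had log2 fold changes of −1.35 (SE 0.18, adjusted p = 1.33e-05) and −0.58 (SE 0.19, adjusted p = 0.0768), so that it passed before correction alone. Biglycan (Bgn), its close relative, was at 11633, 11190.0, 11362 and 11346 CPM in the LacZ libraries and 10783, 11689, 11739 and 11281 CPM in the iCre libraries, a difference of −0.03. Cemip and Dcn had adjusted p-values of 0.817 and 0.0558 without the block.

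Among 17 matrix metalloproteinases and their inhibitors, Mmp9, a gelatinase, rose and Mmp16, a membrane-bound member, fell in both fits. Mmp9 was at 3.45, 1.20, 8.07 and 4.51 CPM in the LacZ libraries and 6.78, 4.33, 7.56 and 15.7 CPM in the iCre libraries and overlapped between groups, with a log2 fold change of 1.07 (SE 0.24, adjusted p = 0.00292). Mmp16 was at 53.0, 22.2, 68.5 and 55.4 CPM in the LacZ libraries and 34.6, 15.4, 33.0 and 20.6 CPM in the iCre libraries, lower in 4 of 4 pairs, with a log2 fold change of −0.94 (SE 0.12, adjusted p = 7.63e-06). After GC correction the log2 fold changes of Mmp9 and Mmp16 were 0.85 and −0.57 (adjusted p = 0.0466 and 0.00741). The adjusted p-values without the block were 0.336 and 0.12, and that of Mmp9 without replicate 4 was 0.0555. The abundant inhibitor genes Timp1 and Timp3 had log2 fold changes of 0.03 and 0.13 that did not pass.

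Of 18 contractile genes of the myofibroblast, 6 rose and 1 fell with the block, none rose and 1 fell after GC correction, and the median log2 fold change was 0.24 before and 0.08 after. Acta2, which encodes smooth muscle α-actin, the usual myofibroblast marker, was at 3980.0, 7058, 2839 and 2108 CPM in the LacZ libraries and 3786, 8364, 4198 and 2442 CPM in the iCre libraries. It varied more between replicate numbers than between LacZ and iCre, with replicate 2 the highest of both groups, and had a log2 fold change of 0.21 (SE 0.09, adjusted p = 0.125). Tagln, another smooth muscle gene, had a log2 fold change of −0.01 (adjusted p = 1). Cald1, the actin-binding caldesmon, was at 2589.7, 2175, 2082 and 1835 CPM in the LacZ libraries and 1698, 1726, 1534 and 1314 CPM in the iCre libraries, and was the contractile gene that fell in both fits, with log2 fold changes of −0.50 (SE 0.08, adjusted p = 8.15e-05) and −0.32 (SE 0.07, adjusted p = 0.0078).

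The 11 fibrotic genes are those that the study displays for these samples, so that their count is no independent evidence. With the block 2 rose and 4 fell, and 1, Comp, fell after GC correction. Fap, which encodes the membrane protease of activated fibroblasts, had a log2 fold change of −0.63 before and −0.06 after, with an adjusted p of 0.42 without the block. Thbs1, thrombospondin 1, was at 8292, 10248, 6466 and 5548 CPM in the LacZ libraries and 7012, 11078, 9748 and 7774 CPM in the iCre libraries, with a log2 fold change of 0.21 (SE 0.11, adjusted p = 0.21).

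AP-1 and EGR transcription factors and the feedback inhibitors of the ERK pathway had the highest share of genes that rose in both fits among the lists. Of 21 genes, 12 rose and 2 fell with the block and 9 rose and 2 fell after GC correction, where 9.67% and 3.86% of all genes rose. In both fits 9 rose and 1 fell, and the median log2 fold change was 0.45 before and 0.28 after correction. In the other groups the list's median for deletion was 0.84 with no ligand, 0.81 with IL-1β and 1.80 with TNFα. After correction it was 0.83, 0.77 and 1.61, each above the value with TGFβ. This list was drawn up with earlier results of the series known. Fosl1, the AP-1 subunit FRA-1, was at 11.9, 7.13, 9.78 and 11.1 CPM in the LacZ libraries and 17.8, 14.5, 29.8 and 44.0 CPM in the iCre libraries. The groups did not overlap, and iCre replicates 3 and 4 were the highest. On the log2 scale the fold change was 1.27 (SE 0.16, adjusted p = 9.33e-06), and 1.01 (SE 0.16, adjusted p = 0.0011) after GC correction.

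Egr3, a zinc finger factor of the immediate-early response, was at 8.86, 4.82, 10.2 and 6.74 CPM in the LacZ libraries and 11.9, 15.0, 16.5 and 28.9 CPM in the iCre libraries, with log2 fold changes of 1.17 (SE 0.20, adjusted p = 0.000205) and 1.06 (SE 0.21, adjusted p = 0.00386). Etv4, an ETS factor induced by ERK, was at 10.8, 2.96, 10.0 and 6.10 CPM in the LacZ libraries and 12.96, 9.07, 22.5 and 38.7 CPM in the iCre libraries, with a log2 fold change of 1.37 (SE 0.24, adjusted p = 0.000267). Of Fosl1, Egr3 and Etv4, Etv4 alone overlapped between groups, and its adjusted p without the block was 0.105. With GC correction and no block the adjusted p of Fosl1, Egr3 and Etv4 was 0.164, 0.132 and 0.373. The dual-specificity phosphatases Dusp4, Dusp5 and Dusp6, which switch off ERK and other MAP kinases, rose in both fits with log2 fold changes of 0.82, 1.09 and 0.65 before and 0.59, 0.85 and 0.63 after correction. Egr1, Jun and the ERK inhibitor Spry4 rose too, by 0.92, 0.56 and 0.55 before and 0.67, 0.34 and 0.44 after correction. Fosl2, the more abundant FOS family gene, was at 304, 348, 283 and 272 CPM in the LacZ libraries and 232, 314, 214 and 186 CPM in the iCre libraries, and fell in both fits (−0.40 and −0.57, adjusted p = 0.000958 and 0.000333). Fos and Fosb had log2 fold changes of 0.39 and 0.45 that did not pass. The calls of Fosl2, Dusp4, Dusp6 and Spry4 were lost without the block (adjusted p = 0.176, 0.234, 0.247 and 0.0724).

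Of 26 growth factor genes, 9 were higher and 6 lower with the block (9.67% and 11.1% of all genes), and 5 were higher and 2 lower after GC correction (3.86% and 5.06%), the lower ones at a share near that over all genes. In both fits 3 were higher and 2 lower. Il11, a cytokine of the IL-6 family that TGFβ induces in fibroblasts, was at 53.8, 58.4, 109 and 108 CPM in the LacZ libraries and 90.7, 79.3, 183 and 356 CPM in the iCre libraries. It was higher in iCre fibroblasts in 4 of 4 pairs, with iCre replicate 4 the highest of the 8 libraries, and the groups overlapped. The log2 fold change was 0.89 (SE 0.13, adjusted p = 7.22e-05), and 0.76 (SE 0.13, adjusted p = 0.00196) after GC correction, with an adjusted p of 0.201 without the block. Tgfa, a ligand of the EGF receptor, and Pdgfa, a ligand of the PDGF receptors, rose in both fits. Their log2 fold changes were 0.61 and 0.47 before and 0.51 and 0.33 after correction. Pdgfd, another PDGF receptor ligand, was at 31.7, 27.1, 39.0 and 28.9 CPM in the LacZ libraries and 14.2, 17.1, 11.1 and 6.06 CPM in the iCre libraries, with a log2 fold change of −1.48 (SE 0.17, adjusted p = 3.39e-06). After GC correction it was −0.92 (adjusted p = 0.0039), and Bdnf fell in both fits as well (−0.72 and −0.25). Igf1 and Hgf, with log2 fold changes of −0.81 and −0.51, passed before GC correction and were at −0.09 and 0.05 after it. The calls of Tgfa, Pdgfa and Hgf were lost without the block (adjusted p = 0.426, 0.073 and 0.145).

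Of 27 NF-κB targets and chemokines, 5 were higher and 5 lower with the block (9.67% and 11.1% of all genes), and 3 were higher and 2 lower after GC correction (3.86% and 5.06%), with 2 in each direction in both fits. The share that was lower after correction is near that over all genes. Tnfaip3, which encodes the ubiquitin-editing NF-κB inhibitor A20, was at 25.4, 7.57, 18.3 and 21.4 CPM in the LacZ libraries and 39.7, 17.8, 27.4 and 35.1 CPM in the iCre libraries, with a log2 fold change of 0.75 (SE 0.11, adjusted p = 3.69e-05). Ccl2, a monocyte chemokine, was at 7.01, 15.7, 12.98 and 16.7 CPM in the LacZ libraries and 15.4, 22.6, 13.4 and 24.9 CPM in the iCre libraries, with a log2 fold change of 0.54 (SE 0.13, adjusted p = 0.00663). Both were higher in 4 of 4 pairs, with overlap between the groups. After GC correction their log2 fold changes were 0.81 and 0.76 (adjusted p = 0.000225 and 0.00263). Il6 was at 96.4, 41.8, 106 and 93.5 CPM in the LacZ libraries and 45.4, 8.44, 33.1 and 37.4 CPM in the iCre libraries, and fell with a log2 fold change of −1.60 (SE 0.13, adjusted p = 5.85e-08), and −0.99 (SE 0.14, adjusted p = 0.00035) after GC correction. The complement gene C3 fell in both fits (−0.40 and −0.57). The adjusted p-values without the block were 0.288, 0.337, 0.0722 and 0.458 for Tnfaip3, Ccl2, Il6 and C3.

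Genes of prostanoid and leukotriene synthesis and reception numbered 21, with 2 higher and 2 lower in both fits. Ptgs1, the constitutive cyclooxygenase COX-1, was at 34.8, 62.0, 69.5 and 69.4 CPM in the LacZ libraries and 70.2, 89.4, 148 and 144 CPM in the iCre libraries. The lowest iCre value (70.2 CPM) lay just above the highest LacZ value (69.5 CPM), and the log2 fold change was 0.89 (SE 0.09, adjusted p = 6.25e-07), and 0.78 (SE 0.08, adjusted p = 4.16e-05) after GC correction, with an adjusted p of 0.0732 without the block. Ptges, a prostaglandin E synthase, was at 5.85, 16.1, 8.33 and 12.7 CPM in the LacZ libraries and 13.03, 31.0, 17.7 and 19.2 CPM in the iCre libraries, higher in 4 of 4 pairs, with a log2 fold change of 0.91 (SE 0.11, adjusted p = 8.88e-06). After GC correction it was 0.75 (adjusted p = 0.000655). Ptger4, the prostaglandin E2 receptor EP4, was at 31.4, 9.69, 32.1 and 23.3 CPM in the LacZ libraries and 14.7, 3.44, 11.01 and 9.57 CPM in the iCre libraries, lower in 4 of 4 pairs, with a log2 fold change of −1.37 (SE 0.11, adjusted p = 4.51e-08), and −1.11 (SE 0.11, adjusted p = 1.59e-05) after correction. Ptgs2, the inducible cyclooxygenase COX-2, was at 425, 956, 611 and 491 CPM in the LacZ libraries and 414, 724, 729 and 749 CPM in the iCre libraries. Its fold change was, on the log2 scale, 0.08 (SE 0.11, adjusted p = 0.784) before and 0.62 (SE 0.12, adjusted p = 0.00309) after GC correction, so that its call depended on the correction. Interferon-stimulated genes had 3 of 21 higher and 8 lower with the block, and none higher and 2 lower after correction, Ifih1 (−0.68 and −0.36) and Mx1 (−1.97 and −1.94). Mx1 was at most at 1.59 CPM in any library, and its adjusted p was 0.0946 without replicate 2 and 0.0612 without replicate 4. Without the block Ptges, Ptger4, Ifih1 and Mx1 had adjusted p-values of 0.148, 0.0964, 0.344 and 0.31.

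Axon guidance genes had 13 of 39 higher and 10 lower with the block, 6 higher and 7 lower after GC correction, and 4 higher and 7 lower in both fits. Besides Sema7a, the secreted semaphorins Sema3b and Sema3f rose in both fits, with log2 fold changes of 0.74 and 0.72 before and 0.50 and 0.45 after correction. Nrp1, a coreceptor of secreted semaphorins, rose as well (0.37 and 0.76), while Nrp2, the other neuropilin and the coreceptor that binds the product of Sema3f, had log2 fold changes of 0.13 and 0.02 that did not pass. Sema3d (−1.34 and −0.72), the netrin Ntn4 (−0.58 and −0.69) and the receptor Robo1 (−0.23 and −0.27) fell. Plxnc1, the plexin that binds the protein made from Sema7a, was at 1.68, 10.4, 3.29 and 3.52 CPM in the LacZ libraries and 2.08, 6.92, 0.974 and 1.05 CPM in the iCre libraries, lower in 3 of 4 pairs, with a log2 fold change of −0.93 (SE 0.27, adjusted p = 0.0168). After GC correction its log2 fold change was −0.97 (adjusted p = 0.0471). The adjusted p of Plxnc1 was 0.0675 without replicate 3 and 0.137 without replicate 4. Plxna2 was at 57.5, 33.6, 54.1 and 46.8 CPM in the LacZ libraries and 43.2, 21.9, 31.1 and 20.0 CPM in the iCre libraries, lower in 4 of 4 pairs, with a log2 fold change of −0.79 (SE 0.11, adjusted p = 1.89e-05). After GC correction it was −0.85 (adjusted p = 0.000214). The abundant Plxnb2 had log2 fold changes of 0.25 before and −0.0028 after GC correction. It passed before the correction alone, and its adjusted p with replicate 1, 2, 3 or 4 left out was 0.0591, 0.0709, 0.132 and 0.0574. Without the block the calls of Sema3b, Nrp1, Ntn4 and Robo1 were lost (adjusted p = 0.138, 0.0827, 0.608 and 0.356), as were those of Plxnc1, Plxna2 and Plxnb2 (adjusted p = 0.551, 0.0943 and 0.258).

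Of 19 p53 targets, 5 rose and 4 fell with the block, 2 rose and 3 fell after GC correction, and 1 rose and 3 fell in both fits. Trp53inp1, at 124, 101, 117 and 105 CPM in the LacZ libraries and 52.2, 50.2, 44.1 and 37.5 CPM in the iCre libraries, fell with log2 fold changes of −1.32 (SE 0.08, adjusted p = 4e-09) and −0.67 (SE 0.08, adjusted p = 0.000101), and Zmat3 and Eda2r fell in both fits while Btg2 rose. The calls of Zmat3 and Btg2 were lost without the block (adjusted p = 0.0588 and 0.628). Of 21 cell cycle genes, 5 rose and 1 fell with the block, and Mcm5 and Mcm6, subunits of the replicative helicase, rose in both fits (0.65 and 0.51 before, 0.51 and 0.56 after). Idi1, an enzyme of isoprenoid and sterol synthesis, was at 39.5, 44.9, 44.7 and 40.2 CPM in the LacZ libraries and 15.4, 20.0, 20.3 and 15.2 CPM in the iCre libraries, without overlap, and fell with log2 fold changes of −1.29 (SE 0.09, adjusted p = 8.47e-09) and −0.90 (SE 0.08, adjusted p = 1.4e-05). Glycolysis and hypoxia genes had 9 of 21 higher with the block and none after GC correction, and Hk2 fell in both fits (−0.31 and −0.44). Of 22 genes of protein folding in the endoplasmic reticulum and of ATF4 signaling, 11 rose with the block and 3 after correction, with Ddit3, the factor CHOP, at 0.34 and 0.47 and with an adjusted p of 0.0517 and 0.0524 without replicate 1 or 4. Of 39 proteasome genes, 5 rose and 5 fell with the block, 6 rose and none fell after GC correction, and none was called in the same direction in both fits. Mcm5, Mcm6, Hk2 and Ddit3 had adjusted p-values of 0.313, 0.111, 0.166 and 0.386 without the block.

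Of 83 genes of cytosolic ribosomal proteins, 61 rose and 1 fell with the block and 21 did not pass. After GC correction 33 rose, 1 fell and 49 did not pass, and 28 rose and 1 fell in both fits, against 2.15% and 4.28% of all genes. The median log2 fold change was 0.29 before and 0.21 after correction. In the other groups the list's median for deletion was −0.07 with no ligand, 0.51 with IL-1β and 0.67 with TNFα, and −0.07, 0.43 and 0.50 after correction. It was thus divided as the GC slopes are, and the part of the libraries in it was not tested. Many of these genes have processed pseudogenes nearly identical in sequence, which makes their counts uncertain. Rpl37a was at 181, 158, 174 and 147 CPM in the LacZ libraries and 304, 273, 275 and 282 CPM in the iCre libraries. Rps28 was at 129, 135, 123 and 117 CPM in the LacZ libraries and 175, 166, 207 and 196 CPM in the iCre libraries. Neither gene overlapped between groups, with log2 fold changes of 0.75 (SE 0.07, adjusted p = 5.27e-07) and 0.53 (SE 0.08, adjusted p = 0.00012), and 0.49 and 0.50 after GC correction. The most abundant members, Rplp0 and Rpl4, had log2 fold changes of 0.33 (SE 0.08, adjusted p = 0.00456) and 0.25 (SE 0.08, adjusted p = 0.0279), and without the block their adjusted p was 0.0571 and 0.153. After GC correction the adjusted p of Rplp0 was 0.187. The adjusted p of Rplp0 without replicate 4 was 0.0583, and that of Rpl4 was 0.066, 0.151 and 0.241 without replicate 2, 3 or 4. The member that fell was Rpl22l1, a paralog of Rpl22, at −0.58 and −0.31. Of 79 nuclear genes of oxidative phosphorylation, 30 rose and 3 fell with the block, 16 rose and 1 fell after GC correction, and 7 rose and 1 fell in both fits (2.15% and 4.28% of all genes). The median of this list was 0.18 with TGFβ, −0.20 with no ligand, 0.22 with IL-1β and 0.42 with TNFα. It was divided in the same way. Its member Atp5g1, a subunit of the ATP synthase ring, was at 66.8, 63.9, 56.4 and 55.1 CPM in the LacZ libraries and 85.2, 80.9, 87.2 and 78.8 CPM in the iCre libraries, with log2 fold changes of 0.43 (SE 0.08, adjusted p = 0.000459) and 0.50 (SE 0.07, adjusted p = 0.000412).

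All 7 mitochondrially encoded genes tested were lower in iCre fibroblasts with the block, and 3 after GC correction. Their transcripts have GC contents of 34.1 to 39.9%, at the low end of all genes. They took 0.32 to 0.46% of the reads in iCre and 0.58 to 0.83% in LacZ libraries. Over the series the share was 0.30 to 0.63% in the 12 libraries S29 to S40 and 0.58 to 1.17% in the other 28. The median log2 fold change of the list was −1.16 with TGFβ, 0.02 with no ligand, −1.097 with IL-1β and −1.24 with TNFα, so that it moved with the libraries of raised GC slope, whose part in it was not tested. mt-Nd2, a subunit of respiratory complex I, was at 922, 735, 592 and 535 CPM in the LacZ libraries and 249.7, 264, 221 and 210.4 CPM in the iCre libraries, without overlap, with log2 fold changes of −1.56 (SE 0.09, adjusted p = 1.1e-09) and −0.65 (SE 0.08, adjusted p = 0.000147). The zinc finger genes Zfp900 to Zfp999, most of them AT-rich in transcript sequence with a median of 38.6% GC, had 32 of 51 lower and 1 higher with the block, and 19 lower and none higher after correction. Their median log2 fold change moved from −1.30 to −0.59. Deletion gave these genes a median of −0.12 with no ligand, −1.102 with IL-1β and −1.44 with TNFα, and −0.07, −0.43 and −0.77 after GC correction, the same division as that of the GC slopes. Besides Zfp979, Zfp947 was at 1.96, 2.45, 1.90 and 1.93 CPM in the LacZ libraries and 0.331, 0.629, 0.374 and 0.498 CPM in the iCre libraries, with a log2 fold change of −2.21 (SE 0.29, adjusted p = 1.42e-05), and −1.54 (SE 0.28, adjusted p = 0.0025) after correction. Genes of this family have near-identical copies, so that their counts are uncertain. How far the correction removes the dependence on GC content within such AT-rich lists was not tested.

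**Figure D4:**
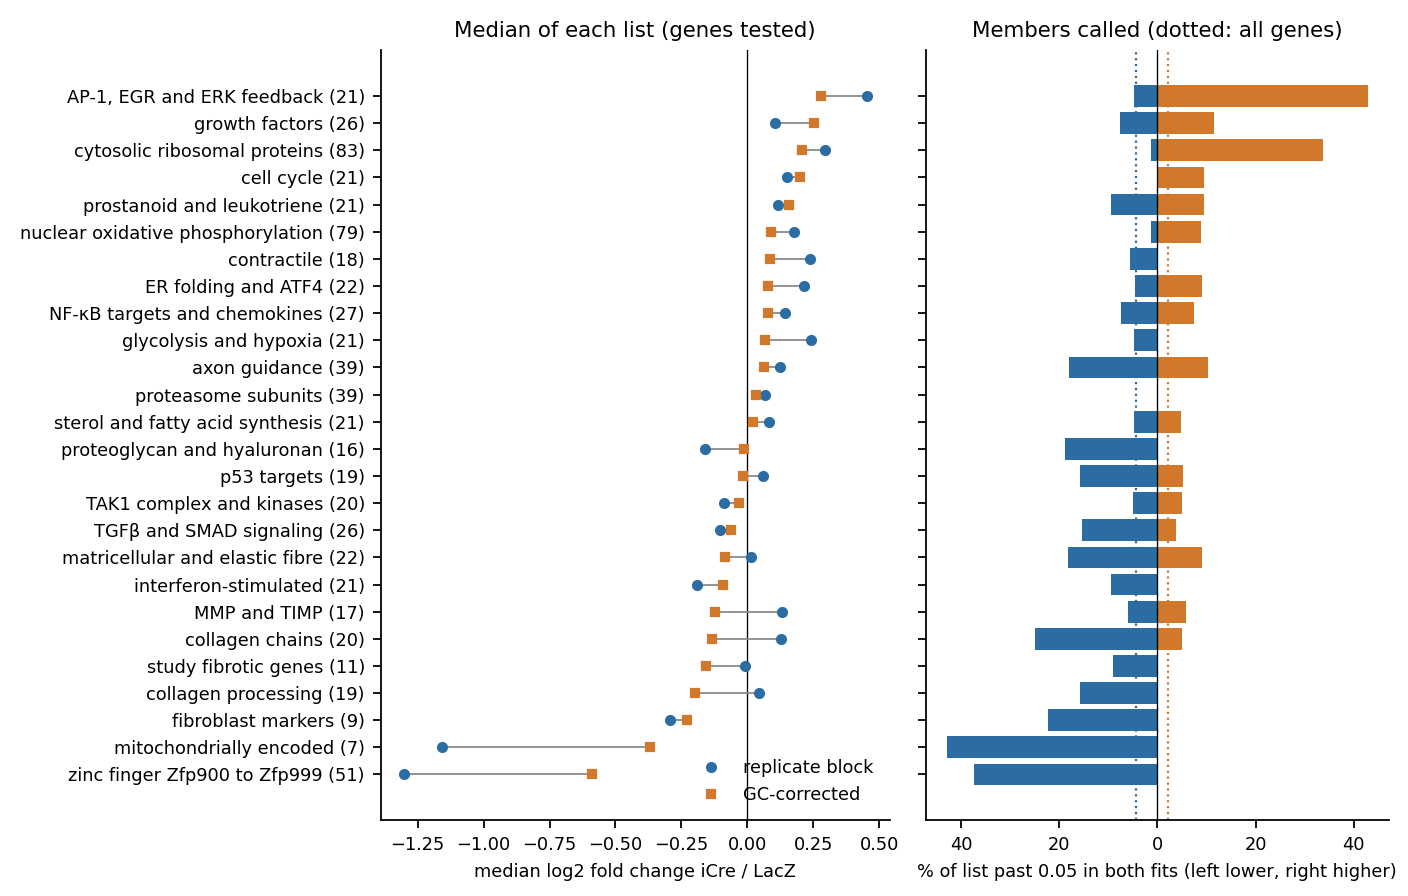
The left panel shows the median log2 fold change (iCre over LacZ, TGFβ-treated) of each gene list, with the number of genes tested, before (circles) and after (squares) GC correction. The right panel shows the percentage of each list that was lower (blue, left) or higher (orange, right) in both fits, and dotted lines mark 4.28% and 2.15% of all genes: AP-1, EGR and ERK feedback genes and ribosomal proteins have the largest shares of higher genes, and mitochondrially encoded genes and zinc finger genes the largest shares of lower genes.

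Fibroblast markers were abundant in all 8 libraries. The 9 markers summed to 54476 to 63559 CPM in LacZ and 45388 to 59922 CPM in iCre libraries, and Col3a1 and the transcription factor gene Tcf21 fell in both fits. Tcf21 was at 41.1, 22.1, 38.9 and 35.6 CPM in the LacZ libraries and 28.3, 8.399, 13.9 and 9.15 CPM in the iCre libraries, lower in 4 of 4 pairs, with a log2 fold change of −1.36 (SE 0.15, adjusted p = 2.38e-06) and an adjusted p of 0.0666 without the block. Of the other cell types, endothelial markers (5 genes) summed to 6.82 to 9.11 CPM in LacZ and 4.78 to 7.36 CPM in iCre libraries, leukocyte and macrophage markers (6 genes) to 23.3 to 88.7 and 16.4 to 59.6 CPM, cardiomyocyte markers (5 genes) to 3.67 to 14.9 and 4.77 to 13.5 CPM, mesothelial markers (4 genes) to 1.40 to 2.54 and 1.38 to 6.14 CPM, and keratinocyte markers (6 genes) to 1.48 to 2.14 and 1.59 to 1.99 CPM. Among them the endothelial Tek and the myeloid Lyz2 fell in both fits (−1.05 and −0.75 before correction, with adjusted p-values of 0.166 and 0.581 without the block), and Krt14 was at 0 in 4 of the 8 libraries. Of the other endothelial markers, Vwf rose with the block (1.20, adjusted p = 0.0451) and did not pass after GC correction (0.97, adjusted p = 0.195) or without the block (adjusted p = 0.143). Kdr, Cdh5 and Pecam1 had log2 fold changes of 0.82, −0.33 and −0.32 that did not pass. Pericyte markers (5 genes) summed to 728 to 1275 CPM in LacZ and 801 to 1986 CPM in iCre libraries, most of it from Rgs5, and Cspg4, at 301, 258, 229 and 229.6 CPM in the LacZ libraries and 539, 295, 552 and 560.0 CPM in the iCre libraries, rose in both fits with a log2 fold change of 0.87 (SE 0.13, adjusted p = 4.84e-05). Rgs5 and Notch3 passed after GC correction alone, in opposite directions, with log2 fold changes of 0.25 and −0.28 before and 0.70 and −0.56 after it (adjusted p = 0.000533 and 0.038 after). Kcnj8 and Abcc9 did not pass in either fit. The part of pericytes in the results above was not tested.

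The effect of deletion with TGFβ was then set against the effect with no ligand, which has its own LacZ and iCre libraries. With the block, 2027 of 25210 genes (8.04%) had a different deletion effect, 596 with a higher and 1431 with a lower value with TGFβ. After GC correction 825 genes differed (3.3%), 401 higher and 424 lower. Map3k7 itself was at 153 ± 6.51 CPM with LacZ and 127 ± 4.27 CPM with iCre with no ligand, and at 227 ± 5.25 and 146 ± 13.3 CPM with TGFβ (SD, n = 4). The difference of the log2 fold changes was −0.40 (adjusted p = 0.00922), and −0.25 after GC correction (adjusted p = 0.145). Without replicate 2, 3 or 4 this difference was −0.32, −0.44 and −0.43 (adjusted p = 0.0609, 0.0828 and 0.0571). The call was lost in each of these fits, which hold fewer libraries.

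Eln, Smoc2, Etv1 and Saa3 were affected by deletion in another way with TGFβ than with no ligand. Eln was at 199 ± 119 CPM with LacZ and 84.3 ± 57.6 CPM with iCre with no ligand, against 14598 ± 3562 and 24207 ± 4661 CPM with TGFβ. It was lower in iCre fibroblasts with no ligand (−1.30) and higher with TGFβ, a difference of 2.01 (adjusted p = 0.000312), and 1.77 after GC correction (adjusted p = 0.00474). Smoc2, which encodes a SPARC-related matrix protein, was at 36.9, 40.2, 36.6 and 41.4 CPM in the LacZ libraries and 44.6, 68.2, 65.4 and 67.6 CPM in the iCre libraries with TGFβ. It rose there (0.62) and fell with no ligand (−1.36), a difference of 1.97 (adjusted p = 0.00814). Without replicate 3 or 4 the adjusted p of this difference was 0.0652 and 0.088. Etv1, an ETS factor, was at 12.3, 8.51, 12.4 and 12.7 CPM in the LacZ libraries and 4.70, 5.14, 4.19 and 4.70 CPM in the iCre libraries with TGFβ. It fell there (−1.31), where the related Etv4 rose, and it rose with no ligand (1.07), a difference of −2.43 (adjusted p = 8.07e-06). Saa3, an acute-phase protein gene, fell by deletion with no ligand (−2.06) and had a log2 fold change of 0.28 with TGFβ that did not pass, with a difference of 2.42 (adjusted p = 0.00249). With no block the adjusted p of the difference was 0.0684 for Smoc2 and 0.112 for Saa3. In the fit with GC correction and no block, the log2 fold changes with TGFβ were 0.62 for Smoc2 and −0.76 for Etv1. Neither passed there (adjusted p = 0.0599 and 0.0548).

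Other genes with large changes with TGFβ passed the test of the difference as well. Tnni1 had a log2 fold change of 0.03 with no ligand, and the difference of 1.85 passed (adjusted p = 0.0109), with an adjusted p of 0.0594 without replicate 4 and 0.368 without the block. Zxdb was at 4.86 ± 0.464 CPM with LacZ and 5.51 ± 0.365 CPM with iCre with no ligand, and differed by −2.39 (adjusted p = 1.63e-05). Zfp808, Zfp979 and Gm3604 also passed, with differences of −3.01, −2.74 and −2.67. Over all 10 groups the mean of Zxdb was between 0.957 and 1.34 CPM in the iCre groups with TGFβ, IL-1β and TNFα, and at least 4.35 CPM in each of the other 7, the same division as that of the GC slopes, and what part the libraries have in it was not tested. Ivl, Penk, Fosl1, Egr3, Etv4, Loxl2, Col8a1, Col14a1 and Tcf21 also passed with no ligand in the direction seen with TGFβ, and the test of the difference did not pass for any of them. For Fosl1 the log2 fold change with no ligand was 1.91, for Penk 1.92, for Loxl2 −0.97 and for Tcf21 −1.34.

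Libraries of the iCre groups with IL-1β and TNFα share the raised GC slope with those treated with TGFβ, and the counts of differing genes hardly depended on GC correction. Against IL-1β, 707 genes (2.8%) differed with the block and 684 (2.74%) after correction. Against TNFα, 2375 (9.42%) and 2410 (9.65%) differed. Without replicate 3 these counts with the block were 273 and 558, and without replicate 4 they were 417 and 902.

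Sema7a rose in iCre fibroblasts with TGFβ, with IL-1β, with TNFα and with no ligand. It was at 1.13 ± 0.315 CPM with LacZ and 53.9 ± 29.8 CPM with iCre with IL-1β, and at 0.802 ± 0.409 and 122 ± 71.7 CPM with TNFα, against 8.58 ± 2.40 and 43.2 ± 34.0 CPM with TGFβ. The log2 fold change with TGFβ differed by −3.45 from that with IL-1β (adjusted p = 0.000412) and by −5.13 from that with TNFα (adjusted p = 0.000314). Against no ligand the difference was −0.64 and did not pass. Nptx1, which encodes a neuronal pentraxin, was at 0.221, 0.800, 1.42 and 1.099 CPM in the LacZ libraries and 0.661, 3.92, 3.63 and 8.99 CPM in the iCre libraries with TGFβ, a log2 fold change of 2.09 (SE 0.27, adjusted p = 1.42e-05) whose adjusted p was 0.0841 without the block. With IL-1β and TNFα its log2 fold changes were 6.96 and 8.13, and both differences passed (adjusted p = 5.74e-06 and 1.96e-05).

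Col1a1 did not pass with TGFβ and fell in iCre fibroblasts with the inflammatory ligands. The log2 fold changes of Col1a1 were −0.94 with IL-1β and −1.001 with TNFα, and the differences of 1.07 and 1.14 passed (adjusted p = 0.00849 and 0.00253). Tgfb2 fell more with IL-1β (−2.47), a difference of 1.24 (adjusted p = 0.0152). Loxl2 too fell more with IL-1β (−1.91), a difference of 0.85 (adjusted p = 0.00744). Ptger4 fell with TGFβ and had log2 fold changes of 0.08, −0.08 and −0.00196 with no ligand, IL-1β and TNFα. Each of its 3 differences passed, at −1.43, −1.24 and −1.30 (adjusted p = 0.00244, 0.00201 and 0.000882), and each passed after GC correction.

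A few genes with the largest differences were near 0 in the TGFβ-treated libraries, so that their fitted differences depend on the prior count. Their levels are given here, and the fitted differences further below. Acod1, the itaconate-producing enzyme of inflamed cells, was at 66.8 ± 31.2 CPM with LacZ and 1.30 ± 0.622 CPM with iCre with TNFα (SD, n = 4), and at or under 0.0661 CPM in each of the 8 TGFβ-treated libraries. Ccl20, a chemokine, was at 6.85 ± 3.92 and 0.0996 ± 0.0850 CPM with TNFα and at 0.0828, 0.0235, 0.240 and 0.0379 CPM in the LacZ libraries and 0.364, 0.0370, 0.187 and 0.194 CPM in the iCre libraries with TGFβ. The lymphoid transcription factor gene Spib was at 189 ± 43.1 and 21.4 ± 24.5 CPM with TNFα and at 0, 0, 0.0534 and 0 CPM in the LacZ libraries and 0.397, 0.222, 0.150 and 0.138 CPM in the iCre libraries with TGFβ. Vnn3 was at 19.4 ± 4.37 and 1.00 ± 0.529 CPM with IL-1β, and at most at 0.0470 CPM with LacZ and 0.331 CPM with iCre with TGFβ. For each of the 4 genes the mean was lower with iCre than with LacZ under the inflammatory ligand named.

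Sprr2b, a small proline-rich protein of epithelia, was at 0.166, 0.423, 0.454 and 0.227 CPM in the LacZ libraries and 1.26, 0.925, 2.06 and 1.77 CPM in the iCre libraries with TGFβ and rose with a log2 fold change of 2.18 (SE 0.37, adjusted p = 0.000267). With IL-1β it was at 90.8 ± 52.6 CPM with LacZ and 9.36 ± 4.14 CPM with iCre, and the difference between the ligands was 5.39 (adjusted p = 1.39e-05). Cxcr4, the receptor of CXCL12, was at 1.79, 1.13, 2.16 and 2.58 CPM in the LacZ libraries and 1.55, 0.222, 1.16 and 2.82 CPM in the iCre libraries with TGFβ, a log2 fold change of −0.67 that did not pass. With TNFα it was at 0.159 ± 0.108 and 6.08 ± 1.19 CPM, a difference of −5.91 (adjusted p = 4.18e-05). Chrna1, a subunit of the muscle acetylcholine receptor, had a difference of −5.89 against TNFα (adjusted p = 0.00965), and without replicate 3 the adjusted p of this difference was 0.0743. Its log2 fold change of 1.02 with TGFβ had an adjusted p of 0.0295, a call that was lost without replicate 2 (0.168), without replicate 4 (0.171), with no block (0.399), in a fit of all 40 libraries (0.272), with filterByExpr (0.0616) and with protein-coding genes alone (0.0606).

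**Figure D5:**
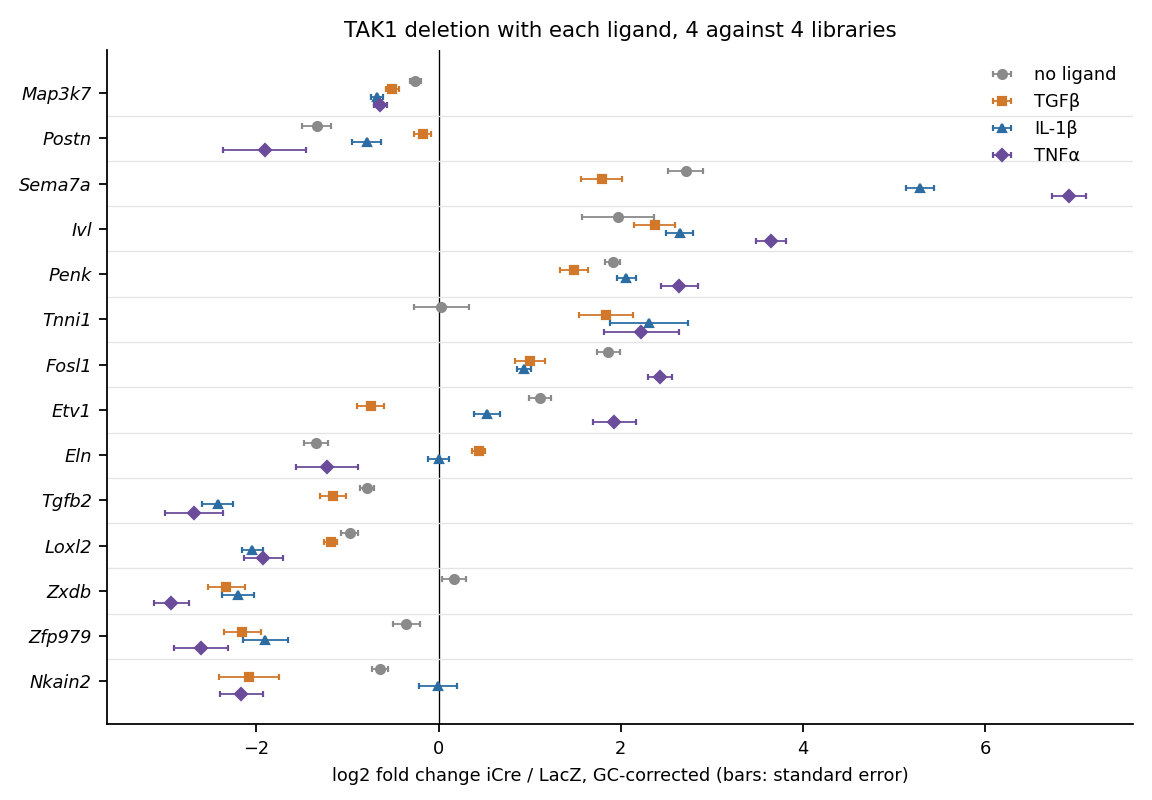
GC-corrected log2 fold changes (iCre over LacZ) of 14 genes with no ligand, TGFβ, IL-1β and TNFα, each from 4 against 4 libraries with the replicate block, with standard errors. Sema7a is at 1.79 with TGFβ and 6.92 with TNFα, Zxdb is below 0 with TGFβ, IL-1β and TNFα and at 0.17 with no ligand, and Eln and Etv1 have opposite signs with TGFβ and no ligand.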

How the data were processed

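Raw counts of reads per Ensembl gene were deposited by the authors for the 40 libraries in a single table of 55414 genes, with no normalization. The reads were single-end, aligned with STAR to mm10 and counted with HTSeq 0.10.0 after FastQC. The methods name a TruSeq Stranded kit and the labels a NEBNext Ultra II kit, and the strand setting and annotation release are not given in the sources used here. Genes with at least 10 counts over the 40 libraries were kept (25210).

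The 4 iCre_TGF and 4 LacZ_TGF libraries entered edgeR 4.0.16 (R 4.3.3), with TMM factors, the replicate number as a block and its quasi-likelihood test. Standard errors, in the text and figures, are the absolute log2 fold change divided by the square root of the F statistic of that test. Benjamini-Hochberg adjustment covered all genes tested, with a threshold of 0.05. The pairing came from the numbers in the titles. Deviations from group means correlated by 0.38 to 0.84 in the 4 same-numbered pairs and by −0.62 to 0.31 in the 12 others. GC correction fitted, in each library, a lowess trend (span 0.3) of the deviation of log2 CPM (prior count 2) on GC content, taken from each gene's longest GENCODE M21 transcript, and used it as an offset. Differences between ligands were tested as interactions over 16 libraries with the same block. Alternatives were the fit without the block, GC and length correction, RLE normalization, DESeq2 1.42.0, filterByExpr, no filter, protein-coding genes, all 40 libraries, and each replicate number left out. Printed CPM values are TMM-scaled and not GC-corrected.

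Named genes were Map3k7, Postn and Sema7a, the 8 largest changes in each direction in both fits, up to 3 called and the 2 most abundant members of each list, and the 3 largest differences in each direction for each ligand; other list members named with log2 fold changes were added after their values were seen. Some genes that this rule takes in are not reported here. The members and lists were chosen with earlier results of these data known. Counts were made without molecular identifiers, and errors come from the replicates. The tests were checked on simulated data. Python 3.11.15 with pandas 2.3.3 was used for tables.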

Additional observations from a re-analysis of the deposited data

Results flagged for a closer look

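Among 294 groups of 4 libraries examined for the named genes, 26 held a library that stood apart from the other 3 by Dixon's criterion, where chance gives about 1 in 20. Replicate 2 was the library standing apart in 14 of the 26. No explanation was weighed.

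In the LacZ libraries the values standing apart were low in replicate 1 for Sncg (0.828 CPM), Strip2 (1.13 CPM) and Ptgs1 (34.8 CPM). In replicate 2 they were low for Nkain2 (1.01 CPM), Il6 (41.8 CPM), Csf1r (3.46 CPM), Upk3b (0.235 CPM) and Etv1 (8.51 CPM), and high for Tab2 (274 CPM), Zfp947 (2.45 CPM) and Vnn3 (0.0470 CPM). Replicate 3 was high for Spib (0.0534 CPM) and replicate 4 for Acod1 (0.0379 CPM).

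In the iCre libraries replicate 1 was low for Ptgs2 (414 CPM), Csf1 (510.0 CPM), Stat2 (65.3 CPM) and Smoc2 (44.6 CPM) and high for Vnn3 (0.331 CPM). Replicate 2 was low for Map3k7 (126 CPM), Zfp979 (0.666 CPM), Plxnb2 (681 CPM), Ptgis (350.3 CPM), Csf1r (3.26 CPM) and Cspg4 (295 CPM). Replicate 4 was low for both chains of collagen I, Col1a1 (19819 CPM) and Col1a2 (12506 CPM).

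The effect of deletion with TGFβ differed, by a test of the difference itself, from that with no ligand in 2027 genes, from that with IL-1β in 707 and from that with TNFα in 2375. Against no ligand the log2 fold change with TGFβ differed by −0.40 for Map3k7, 1.85 for Tnni1, 1.496 for Sncg, 0.79 for Kcnn4, 3.99 for Spib, 2.42 for Saa3 and 1.97 for Smoc2. It differed by −3.01 for Zfp808, −2.39 for Zxdb, −2.74 for Zfp979, −1.56 for Nkain2, −2.67 for Gm3604 and −2.43 for Etv1. After GC correction the adjusted p was 0.145 for Map3k7, 0.117 for Sncg and 0.116 for Kcnn4.

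Against IL-1β the difference was −3.45 for Sema7a, −2.11 for Nkain2, 7.11 for Acod1, 6.69 for Vnn3, 5.39 for Sprr2b and −4.87 for Nptx1. Against TNFα it was −5.13 for Sema7a, −1.17 for Penk, −0.81 for Kcnn4, 7.60 for Spib, 7.79 for Acod1, −5.90 for Nptx1, 7.06 for Ccl20, −5.91 for Cxcr4 and −5.89 for Chrna1. The values of Acod1, Vnn3, Spib and Ccl20 rest on TGFβ-treated libraries near 0 and depend on the prior count.

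Several of these differences did not pass in another fit. Against no ligand the adjusted p without replicate 1, 3 or 4 was 0.0526, 0.114 and 0.118 for Sncg and 0.151, 0.0861 and 0.218 for Kcnn4. With no block it was 0.241 for Sncg, 0.412 for Kcnn4 and 0.214 for Nkain2, and for Spib it was 0.0654 and 0.0575 without replicate 1 or 4. Against IL-1β it was 0.332 for Nkain2 with no block and 0.0554 without replicate 3. For Vnn3 it was 0.0887 with no block and 1 and 0.0722 without replicate 1 or 3, and for Acod1 0.0582 without replicate 3. Against TNFα it was 0.109 for Penk and 0.403 for Kcnn4 with no block, 0.138 and 0.256 without replicate 3, and 0.108 for Kcnn4 without replicate 4. Spib had 0.0715 with no block and 0.0734, 0.0975 and 0.0640 without replicate 2, 3 or 4, and Acod1 had 0.0984 and 0.0958 without replicate 2 or 4.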

How the results depend on the processing

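The number of genes called depended on the replicate block and on GC correction. With the replicate block 5238 genes passed (46.5% of them higher), against 2111 with no block (632 higher and 1479 lower, so 29.9% higher) and 2228 after GC correction with the block (965 and 1263). GC correction with no block gave 323 (158 and 165), and GC and length correction with the block 2208 (950 and 1258). RLE normalization, DESeq2, filterByExpr, no filter, protein-coding genes and all 40 libraries gave 4826 to 5729, of which 53.6% were higher with all 40 libraries. With each replicate number left out, 3716 to 5201 genes passed, 1313 to 2284 higher and 2278 to 2917 lower, and 35.3% were higher without replicate 4. After GC correction, leaving out a replicate, an alternative chosen after seeing the data, gave 1248 to 2517.

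The difference against no ligand was called in 2027 genes, 1138 with no block, 825 after GC correction and 855 to 2494 with a replicate left out. Against IL-1β there were 707, 125 with no block and 273 to 862 with a replicate left out, and against TNFα 2375, 863 with no block and 558 to 2950. After GC correction, 48.6% of the differences against no ligand were higher with TGFβ, where 29.4% were before it.

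Of 147 named genes, 56 lost and none gained significance with no block, 18 lost and 5 gained it with GC correction, and 89 lost it with GC correction and no block. In addition 4 of 142 lost it with DESeq2, 26 with all 40 libraries (2 gained it), 11 of 142 with filterByExpr and 8 with protein-coding genes alone, with adjusted p-values of 0.0513 to 0.401. With a replicate left out 6 to 19 lost it, and 6, 0, 1 and 2 gained it without replicate 1, 2, 3 and 4. The sign of Plxnb2 turned with GC correction (−0.0028, and −0.000763 with no block) but not with GC and length correction (0.021), and that of Zfp950 turned with each of them (0.23, and 0.23 with no block and 0.25 with length). Of the 16 genes with the largest changes, which were chosen for passing with and without GC correction, 15 passed with no block (Tnni1 did not) and 6 with GC correction and no block. The cause of these changes was not tested. Read depth limits the genes under 1 CPM, such as Acod1 and Vnn3.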
